A study of Mus musculus with 4 samples.

Results

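The genes described here encode collagens and the proteins that modify, fold, trim, crosslink or accompany them. They were chosen by name: 38 genes, taken as every probe set annotated to exactly 1 of their symbols. Of these 38 genes 37 were measured, by 73 of the 45037 probe sets tested, and they are 37 of the 18193 genes with such a probe set. Loxl2, a crosslinking enzyme gene, had no probe set annotated to it alone and was not analysed here.

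RNA had been prepared from 4 mouse liver tumor samples, and each was hybridized to 1 Affymetrix mouse expression array. Every tumor was driven by HrasV12, carried a tet-off hairpin against p53 (shp53) and had grown from liver progenitor cells, immature cells of the liver epithelium, that were transplanted into the livers of recipient mice. Mice of 2 samples had received doxycycline for 0 days, so that the hairpin was made and p53 was low (p53 off), and those of the other 2 samples for 8 days, which stops the hairpin (p53 on). Nothing in the sources used here states the recipients' strain or age, the number of progenitor clones or whether replicates were separate mice; the p-values therefore reflect spread among 4 samples, and that spread may be technical. No sample had doxycycline without the hairpin, and p53, doxycycline and time cannot be told apart. The tumors hold host cells as well as tumor cells, and in such bulk samples a lower share of a cell type and less RNA per cell cannot be told apart.

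Collagens are built from 3 chains wound into a triple helix. Fibrillar collagens form the fibres of connective tissue, type IV collagens form the sheet of the basement membrane, and several smaller families link the networks or coat them. Inside the cell, proline and lysine residues are hydroxylated and the chaperone HSP47 holds the helix together. Outside it, the end pieces are cut off and lysyl oxidases crosslink the fibres. In injured liver most fibrillar collagen comes from stellate cells and fibroblasts.

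Most collagen chains that rose in p53 on belonged to the fibrillar family, to type VI and to the main type IV pair, whereas the enzymes that hydroxylate and crosslink them split. Of the 37 measured genes, 19 passed the test as higher in p53 on and 3 as lower, and 15 did not pass it. Over all 18193 genes 14% passed as higher and 14.7% as lower, or 28.7% in either direction. The test was limma's moderated test across all genes, with a call at a Benjamini-Hochberg adjusted p under 0.05; values are log2, so that a change of 1 is a doubling, and changes are given as p53 on minus p53 off ± SE (n = 2 against 2). The median change of the 37 genes was 0.53, beside 0.02 for all genes. Both p53 on arrays lay above both p53 off arrays for 28 of the genes and below them for 5, against 36.3% and 30.4% of all genes. Fewer members, and fewer of all genes, were called when either p53 off array was left out. Without p53 on replicate 1 more members were called lower. With 1 array left in a group, the spread comes from the other group alone. Calls in such fits therefore show dependence on single arrays and are not further tests.

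**Figure D1:**
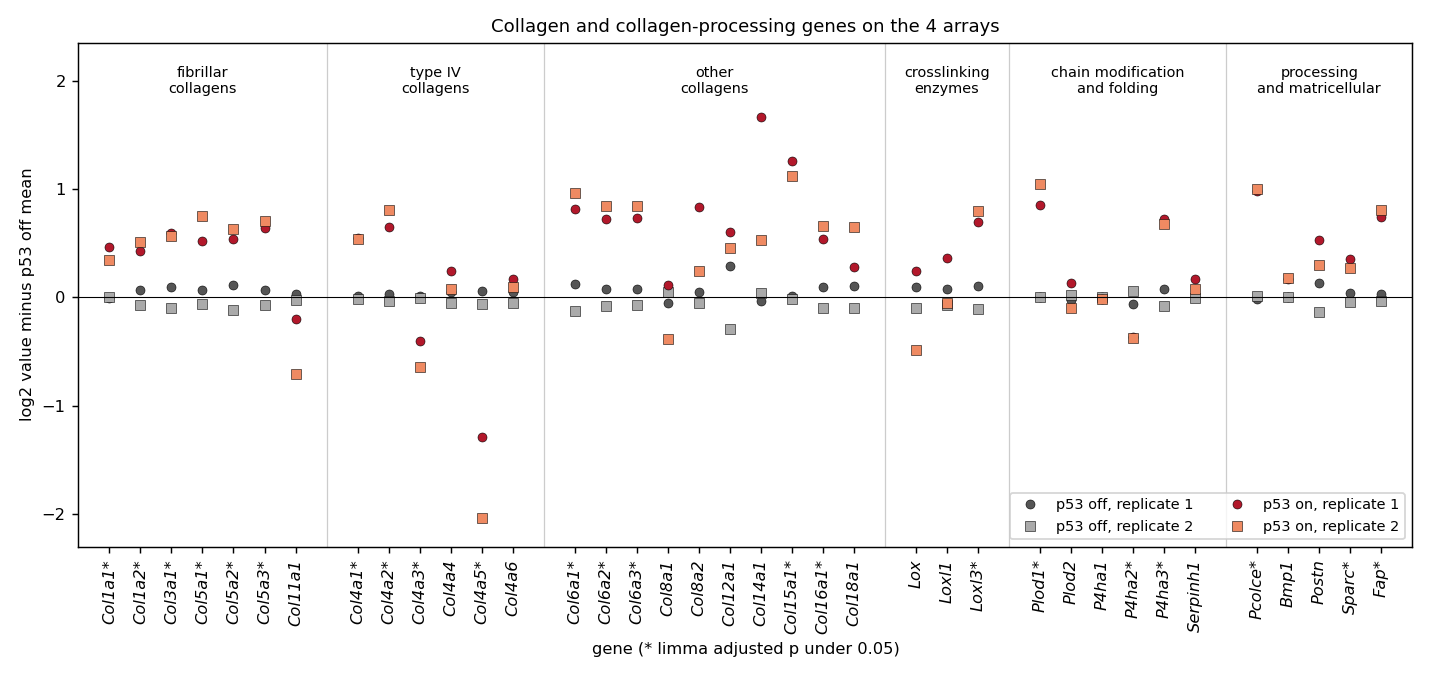
Log2 value of each array minus the gene's p53 off mean, for the 37 measured genes in 6 role groups; circles are replicate 1, squares replicate 2, grey p53 off and red or orange p53 on. The 6 called fibrillar genes and all 3 type VI genes have both p53 on arrays above both p53 off arrays, while Col4a5 lies lowest and the 2 p53 on arrays of Col14a1 are far apart.

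Fibrillar collagen genes rose together, by a modest amount. Of 7 genes 6 rose and 0 fell, and the median change was 0.58. Col1a1 and Col1a2 encode the chains of type I collagen, the main fibre of scar tissue. Col1a1 had log2 values of 12.46 and 12.46 with p53 off and 12.93 and 12.80 with p53 on. Col1a2 had 13.98 and 13.84 with p53 off and 14.34 and 14.42 with p53 on. In both genes the p53 on arrays stood clear of the p53 off arrays. The changes were 0.41 ± 0.08 (1.32-fold; limma adjusted p = 0.0162) for Col1a1 and 0.47 ± 0.09 (1.38-fold; limma adjusted p = 0.0126) for Col1a2.

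Col3a1, which encodes the collagen of fine reticular fibres, had 13.82 and 13.63 with p53 off and 14.32 and 14.30 with p53 on, a change of 0.58 ± 0.09 (limma adjusted p = 0.00813). The 3 type V genes, whose product seeds and narrows type I fibres, rose by nearly the same amount: Col5a1 by 0.63 ± 0.11, Col5a2 by 0.58 ± 0.10 and Col5a3 by 0.67 ± 0.08. Col5a3 was at 11.60 and 11.46 in p53 off and at 12.17 and 12.23 in p53 on, and its adjusted p was 0.0041 by limma. The groups of all 6 of these genes did not overlap. Col11a1, a minor fibrillar chain best known from cartilage, was the exception, with 7.71 and 7.66 with p53 off and 7.48 and 6.98 with p53 on. Its change of -0.45 ± 0.17 did not pass the test (limma adjusted p = 0.102), though it did when arrays were centred on their medians. The change was -0.70 without p53 on replicate 1 and -0.20 without p53 on replicate 2.

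The fibrillar calls leaned on p53 off replicate 2, in which 5 of these 6 genes were at their lowest value and the remaining gene, Col1a1, differed by under 0.01 from replicate 1. Without that array only Col5a3 was called, and the median change was 0.47. The changes of Col1a1, Col1a2, Col3a1, Col5a1 and Col5a2 were then 0.41, 0.40, 0.48, 0.57 and 0.47. Fewer of all genes were called without that array too. Col1a1 was also not called without p53 off replicate 1 (0.0854).

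Promoter sequence from RefSeq (build GRCm38.p6) shows how unlike the starts of genes that rose by similar amounts can be. The 150 bases just before the genes of the type I chain Col1a2 and of Col3a1 are shown here because both rose with both p53 on arrays above p53 off. Capitals mark the letters CCAAT or GGGCGG on either strand.
Col1a2 (chr6:4505468-4505617, plus strand): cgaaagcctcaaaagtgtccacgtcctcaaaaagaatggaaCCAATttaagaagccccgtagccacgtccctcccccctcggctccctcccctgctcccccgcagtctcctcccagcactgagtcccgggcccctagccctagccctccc
Col3a1 (chr1:45311388-45311537, plus strand): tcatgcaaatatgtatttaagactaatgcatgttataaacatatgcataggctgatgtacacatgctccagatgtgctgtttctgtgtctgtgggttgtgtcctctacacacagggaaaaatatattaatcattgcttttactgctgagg
The Col1a2 stretch holds 1 CCAAT, the core of the site bound by the factor NF-Y, and the Col3a1 stretch holds neither motif. Of the members, 26 genes had a window in the promoter table, 29 windows in all, each running from 250 bases before to 50 bases after a start. CCAAT on either strand was in 9 of these 29 windows and in 37.4% of all 32851 windows. GGGCGG, the core of the GC box bound by SP1, was in 20 of the 29 and in 35.7% of all. The windows of Col4a1 and Col4a2 overlap and so share some of these letters. A match is a run of letters, not evidence of binding.

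Type IV collagen genes went in opposite directions. Their 6 genes lie as 3 neighbouring pairs, and within each pair the genes are read away from each other. Col4a1 and Col4a2 encode the chains of the basement membrane found in nearly all tissues. Col4a1 had 13.35 and 13.32 with p53 off and 13.88 and 13.87 with p53 on, a rise of 0.54 ± 0.07 (1.46-fold; limma adjusted p = 0.00454). Col4a2 had 12.82 and 12.75 with p53 off and 13.43 and 13.58 with p53 on, a rise of 0.73 ± 0.09 (1.66-fold; limma adjusted p = 0.00345). In both genes the gap between the groups was several times the gap between replicates, and both calls held without any 1 of the 4 arrays (highest limma adjusted p 0.0453 and 0.0355).

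Col4a5 and Col4a3 encode chains of more specialised basement membranes, such as those of the kidney filter. Col4a5 had 9.76 and 9.64 with p53 off and 8.41 and 7.66 with p53 on. It fell by 1.67 ± 0.24 on the log2 scale, the change of largest size among the 37 genes by brightest probe set (3.17-fold; limma adjusted p = 0.00612). Averaged over its 2 probe sets it was at -0.95, a smaller size than that of Col15a1 (1.19). Both p53 on arrays lay far below p53 off, but they differed from each other by 0.75, and its change was -1.29 without p53 on replicate 2 and -2.04 without replicate 1. Col4a3 had 8.31 and 8.29 with p53 off and 7.89 and 7.66 with p53 on, a fall with a change of -0.52 ± 0.10 (limma adjusted p = 0.0146). Its call was lost without p53 off replicate 1 (0.0761) or replicate 2 (0.0873), whereas that of Col4a5 held without any 1 array (highest limma adjusted p 0.0401).

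The partners of these genes did not pass the test. Col4a6, the neighbour of Col4a5, had 7.63 and 7.53 with p53 off and 7.75 and 7.68 with p53 on, a change of 0.14 ± 0.08 with a 95% interval from -0.06 to 0.34. Col4a4, the neighbour of Col4a3, had 6.70 and 6.60 with p53 off and 6.89 and 6.73 with p53 on, a change of 0.16 ± 0.09 with an interval from -0.07 to 0.39. Both were dim, and the mean of Col4a4 lay under the level of 7.63 that bounds the dimmest 40% of genes, a range in which changes on such arrays can be compressed. The median change of the 6 type IV genes, 0.15, therefore averages 2 genes that rose, 2 that fell and 2 that were not called.

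**Figure D2:**
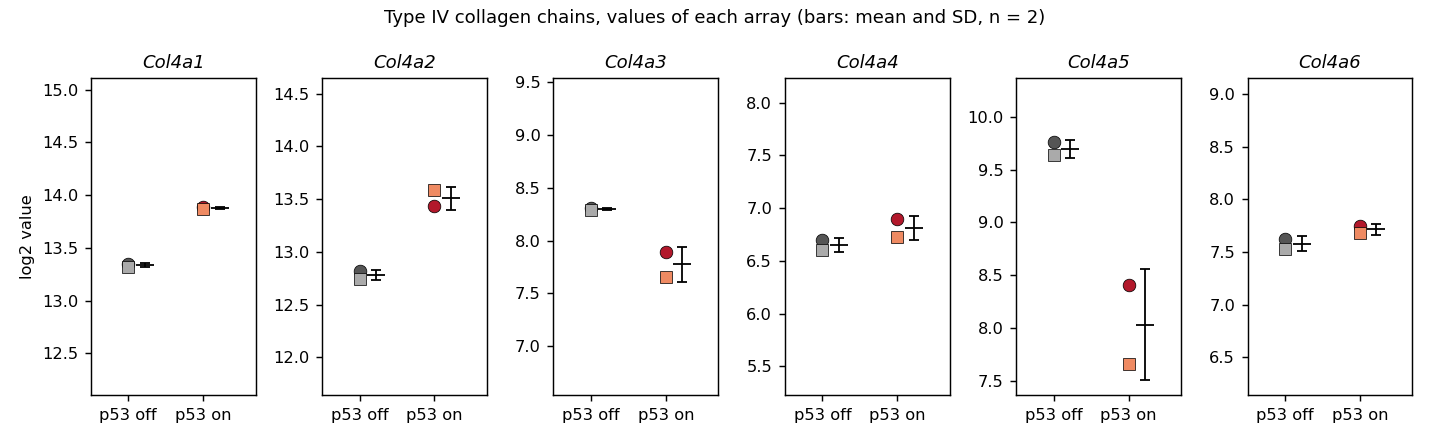
Log2 values of the 6 type IV collagen genes, 1 panel per gene, each panel spanning the same range of log2 units; circles are replicate 1 and squares replicate 2, with the mean and SD (n = 2) beside them. Col4a1 and Col4a2 step up by 0.54 and 0.73, Col4a3 and Col4a5 change by -0.52 and -1.67, and Col4a4 and Col4a6 shift by under 0.2.

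The pairs differ in layout too. The annotated genes Col4a3 and Col4a4 have 0 bases between them, as Col4a1 and Col4a2 do, yet Col4a3 fell and Col4a4 was not called. Col4a5 and Col4a6 lie 1274 bases apart. A link between layout and direction was not tested. The annotated genes Col4a1 and Col4a2, which rose together, overlap at their starts, and the 22 bases from the start of Col4a2 to that of Col4a1 in the promoter table are shown first. Upstream bases of Col4a5 and Col4a6, which gave different values, follow, each read toward its own gene. Capitals again mark CCAAT or GGGCGG.
Col4a1 and Col4a2 starts (chr8:11312805-11312826, plus strand): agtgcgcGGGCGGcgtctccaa
Col4a5 (chrX:141475220-141475369, plus strand): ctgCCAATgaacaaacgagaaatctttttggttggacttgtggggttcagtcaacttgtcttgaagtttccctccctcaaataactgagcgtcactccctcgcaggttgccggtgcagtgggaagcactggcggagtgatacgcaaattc
Col4a6 (chrX:141474096-141474245, minus strand): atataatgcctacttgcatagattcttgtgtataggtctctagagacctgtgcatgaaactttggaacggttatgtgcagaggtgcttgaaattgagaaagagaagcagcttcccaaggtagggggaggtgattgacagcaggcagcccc
The bases between the starts of Col4a1 and Col4a2 hold 1 GGGCGG. The 150 bases before Col4a5 hold 1 CCAAT, and those before Col4a6 hold neither motif. The longer windows, from 250 bases before to 50 bases after a start, hold GGGCGG for Col4a1, Col4a2, Col4a5 and Col4a6 alike. They hold CCAAT for Col4a1, Col4a2 and Col4a5.

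Other basement membrane genes rose more often than they fell. Of 15 measured genes 6 rose and 1 fell (median 0.22), beside 14% and 14.7% of all genes. Lama2, the laminin chain of muscle and mesenchymal basement membranes, rose by 2.66 ± 0.10 (6.30-fold; limma adjusted p = 0.000311), from 8.49 and 8.29 to 10.97 and 11.13. Nid2, which links laminin to type IV collagen, rose by 1.49 ± 0.15. Lama5, the laminin chain of many epithelial basement membranes, fell with a change of -1.39 ± 0.07 (limma adjusted p = 0.00051; -0.92 with the mean of all its probe sets), from 9.79 and 9.85 to 8.41 and 8.46. The count of higher genes was 3 of the 15 when p53 off replicate 2 was left out. Epithelial markers were mostly lower in p53 on, as Lama5 was. Of 7 measured biliary and epithelial markers 5 fell and 1, Epcam, rose (0.52 ± 0.07; not called without p53 off replicate 2), their mean log2 value was 11.04 and 11.22 with p53 off and 10.35 and 10.37 with p53 on, and Krt18 and Krt8, keratins of simple epithelia, changed by -1.61 ± 0.10 and -1.36 ± 0.10 and Cdh1, the epithelial cadherin, by -1.20 ± 0.13. Their part in the falls of Col4a5, Col4a3 and Lama5 was not tested.

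All 3 type VI genes, which encode the chains of beaded microfibrils around cells, rose by close amounts. Col6a1 had 12.63 and 12.38 with p53 off and 13.32 and 13.46 with p53 on (0.89 ± 0.11; 1.85-fold; limma adjusted p = 0.00404). Col6a2 had 12.77 and 12.61 with p53 off and 13.41 and 13.53 with p53 on, and Col6a3 had 13.34 and 13.19 with p53 off and 14.00 and 14.11 with p53 on. Each of the 3 genes was called without any 1 array, with limma adjusted p of at most 0.0296. The changes of Col6a2 and Col6a3 were 0.79 ± 0.09 and 0.79 ± 0.09 (limma adjusted p = 0.0033 and 0.00308), beside 0.89 ± 0.11 for Col6a1.

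By brightest probe set, the largest called rise was that of Col15a1, which encodes a collagen with long sugar chains at the outer face of basement membranes. It had 10.05 and 10.02 with p53 off and 11.29 and 11.16 with p53 on, a rise of 1.19 ± 0.08 (2.28-fold; limma adjusted p = 0.00083). By brightest probe set Col15a1 and Col4a5 were the members that passed both the test and a change of at least 1. With averaged probe sets Col4a5 was under 1 in size. By the brightest probe set whose name carries no a, s or x suffix, Col3a1 was at 1.19 too. Col18a1, a relative of Col15a1, is the source of the fragment endostatin. Its values were 12.37 and 12.16 with p53 off and 12.54 and 12.91 with p53 on. Its change of 0.46 ± 0.15 did not pass (limma adjusted p = 0.0681), but it did in 5 of 15 alternative settings, with adjusted p between 0.0105 and 0.3 and changes between 0.28 and 0.65.

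Collagens that sit on the surface of fibres gave mixed results. Col16a1 rose from 8.93 and 8.74 to 9.37 and 9.49 (0.60 ± 0.10; limma adjusted p = 0.00954; not called without p53 off replicate 2, 0.0649). Col14a1, which binds the surface of fibrils, had 10.06 and 10.14 in p53 off but 11.76 and 10.63 in p53 on. The p53 on arrays were both higher, yet 1.14 apart, and the change of 1.10 ± 0.35 did not pass (limma adjusted p = 0.071). It was 1.66 without p53 on replicate 2 and 0.53 without p53 on replicate 1. Fits with 1 p53 on array leave out the gap between those arrays, so they cannot test the rise. Col12a1, a related gene, had 10.74 and 10.15 with p53 off and 11.05 and 10.90 with p53 on (0.53 ± 0.20; limma adjusted p = 0.104). Here the p53 off arrays were the ones that differed, and without replicate 1 of them the change was 0.82 and without replicate 2 it was 0.23.

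Type VIII collagen forms open lattices in vessel walls. Col8a1 had 11.82 and 11.92 with p53 off and 11.98 and 11.48 with p53 on, so that the groups overlapped (-0.14 ± 0.17, limma adjusted p = 0.609). Its change was -0.39 without p53 on replicate 1 and 0.12 without replicate 2. Col8a2 had 5.94 and 5.83 with p53 off and 6.72 and 6.13 with p53 on (0.54 ± 0.19, limma adjusted p = 0.095) and lay among the dimmest 40% of genes. Without p53 on replicate 2 the change of Col8a2 was 0.84, and without replicate 1 it was 0.25. In all, 5 of the 10 collagens outside the fibrillar and type IV families rose, 0 fell, and the median change was 0.69.

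The lysyl oxidases, which crosslink collagen and elastin, did not move as a block. Of 3 measured genes 1 rose and 0 fell, with a median change of 0.16. Loxl3 rose from 10.68 and 10.46 to 11.27 and 11.37 (0.75 ± 0.10; 1.68-fold; limma adjusted p = 0.00504). Lox, the founding member, had 10.39 and 10.19 with p53 off and 10.53 and 9.81 with p53 on, so that 1 p53 on array was the highest of the 4 and the other the lowest. Its change was -0.12 ± 0.24, with a 95% interval from -0.72 to 0.47. Loxl1, known for its part in elastic fibres, had 10.41 and 10.26 with p53 off and 10.70 and 10.28 with p53 on (0.16 ± 0.15, interval from -0.22 to 0.53). Both values turned on the p53 on arrays. Lox was at -0.48 without replicate 1 of them and at 0.24 without replicate 2. Loxl1 was at -0.05 and 0.36 in the same removals, so that the median of the 3 genes was -0.05 without p53 on replicate 1 and 0.36 without replicate 2.

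Among enzymes that hydroxylate the chains and the chaperone that folds them, 2 of 6 genes rose, 1 fell and 3 did not pass the test. The lysyl hydroxylases differed. Plod1, which prepares the helix for crosslinks, rose from 9.68 and 9.68 to 10.53 and 10.73 (0.95 ± 0.09; 1.93-fold; limma adjusted p = 0.00191). Plod2, which acts on the chain ends and favours the stable crosslinks of scars, had 10.89 and 10.94 with p53 off and 11.05 and 10.81 with p53 on. By brightest probe set the groups of Plod2 overlapped, and its change was 0.02 ± 0.10 with an interval from -0.24 to 0.27. Its second probe set, at a mean of 10.60, changed by -0.32 ± 0.12 and was not called (limma adjusted p = 0.109).

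P4ha1, P4ha2 and P4ha3 encode the catalytic subunits of prolyl 4-hydroxylase, which stabilises the helix, and each gave a different result. P4ha1 had 10.30 and 10.30 with p53 off and 10.28 and 10.28 with p53 on, a change of -0.02 ± 0.07 with an interval from -0.20 to 0.16. P4ha2 went from 9.66 and 9.77 to 9.35 and 9.34, a fall with a change of -0.37 ± 0.08 (limma adjusted p = 0.0205). That call was lost without p53 off replicate 1 (0.0583) or replicate 2 (0.14) and under spike-in scaling (change -0.24). P4ha3 rose from 6.87 and 6.71 to 7.51 and 7.47 (0.70 ± 0.09; limma adjusted p = 0.00377), at a level within the dimmest 40% of genes. Serpinh1, which encodes the collagen chaperone HSP47, had 12.76 and 12.74 with p53 off and 12.92 and 12.82 with p53 on. Its change of 0.12 ± 0.08 did not pass (limma adjusted p = 0.288), and its interval, from -0.07 to 0.32, overlaps that of Col1a1, from 0.21 to 0.61.

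P4ha1, P4ha2, Plod2 and Lox are known targets of the oxygen-sensing factor HIF-1, so a list of other hypoxia response genes was set beside them. Of 9 measured genes 5 fell and 2, Adm and Ankrd37, rose (median -0.45). Pdk1, which restrains the entry of pyruvate into mitochondria, changed by -1.32 ± 0.13 (-0.55 when its probe sets were averaged) and Vegfa by -1.07 ± 0.17 (limma adjusted p = 0.0568 without p53 off replicate 2). Adm rose by 0.79 ± 0.18, and like that of Ankrd37 its call was lost without p53 off replicate 1 or 2 (limma adjusted p up to 0.139). Leaving out p53 off replicate 2 left 2 of the 9 lower, and leaving out replicate 1 left 0 higher. The part of this list in the values of the hydroxylases was not tested.

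Genes that trim procollagen or accompany it in the matrix were higher or not called. Of 5 genes 3 rose and 0 fell, with a median change of 0.41. Pcolce, which speeds the removal of the C-terminal end piece of fibrillar procollagens, had 12.69 and 12.71 with p53 off and 13.68 and 13.70 with p53 on. The replicates of Pcolce differed by about 0.02 in either group, and it rose by 0.99 ± 0.07 (1.98-fold; limma adjusted p = 0.00089). Bmp1, the protease that Pcolce assists, had 10.88 and 10.88 with p53 off and 11.05 and 11.06 with p53 on. Its groups did not overlap, but the change of 0.17 ± 0.07 did not pass (limma adjusted p = 0.128), except with quantile normalization and spike-in scaling, and it was -0.06 with the mean of all its probe sets.

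Fap, a surface protease used as a marker of activated fibroblasts, rose from 11.66 and 11.60 to 12.37 and 12.43 (0.77 ± 0.08; 1.71-fold; limma adjusted p = 0.00194). Sparc, which binds collagen as it leaves the cell, rose by 0.32 ± 0.08 (1.25-fold; limma adjusted p = 0.0342), from 13.76 and 13.68 to 14.08 and 13.99. The call of Sparc was lost in 6 of 15 alternative settings, among them the removal of either p53 off array (0.0961 and 0.202) or of p53 on replicate 1 (0.0971), centring on the array median, and the replicate block. Postn, which encodes periostin, a matrix protein of wounds and tumor stroma, had 13.40 and 13.14 with p53 off and 13.80 and 13.56 with p53 on (0.41 ± 0.13; limma adjusted p = 0.0643; called in 5 of 15 settings).

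Where other probe sets of the same genes were called, the direction was the same, but the size often was not. Of 73 probe sets 30 were higher, 4 were lower and 39 did not pass, against 11.3% higher and 11.5% lower of all 45037 (22.8% in either direction), and 0 genes had a probe set called each way. Of 26 genes with more than 1 probe set, 9 had every probe set called the same way. The share of such genes over all genes was not counted. The gene values above come from the brightest probe set, and for several abundant collagens another one moved more. For Col3a1 the second probe set changed by 1.19 ± 0.11 against 0.58, for Col1a1 by 0.83 ± 0.16 against 0.41, for Col5a2 by 0.94 ± 0.13 against 0.58 and for Col4a1 by 0.81 ± 0.08 against 0.54. Of 10 genes whose brightest probe set averaged over 12 and moved upward, with a second probe set above the dimmest 40%, 7 had the larger change in the second; the level of 12 was chosen after these values were seen. Col1a1 was at 0.62 with the mean of all its probe sets.

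Dimmer probe sets could also show less. The second probe set of Col4a5 was at -0.24 ± 0.10 (limma adjusted p = 0.155) and that of Plod1 at 0.08 ± 0.07, so that with the mean of all probe sets Col4a5 was at -0.95, Plod1 at 0.51 and Col5a3 at 0.41. These 3 second probe sets averaged 6.88, 7.34 and 6.03 and lie in the dimmest range. Bmp1 is a case where probe sets disagreed in sign: its second probe set had 8.15 and 8.14 with p53 off and 7.64 and 7.92 with p53 on (-0.36 ± 0.11, limma adjusted p = 0.0661), while the brightest gave 0.17. Second probe sets of Plod2 (-0.32 ± 0.12), Lox (-0.35 ± 0.20), P4ha1 (-0.24 ± 0.08) and Col8a1 (-0.31 ± 0.15) had both p53 on arrays below both p53 off arrays, and none was called. Those of Col12a1, Col14a1, Col18a1, Loxl1 and Serpinh1 changed upward and were not called either.

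**Figure D3:**
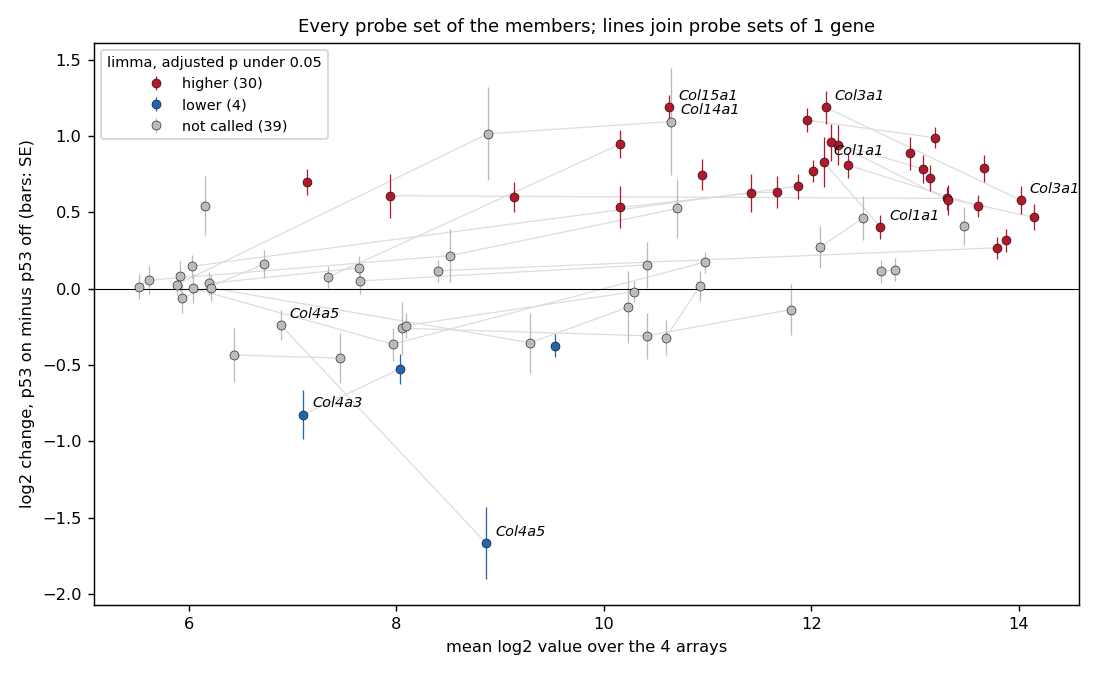
Change (p53 on minus p53 off, log2, bars are SE) against mean log2 value for the 73 probe sets of the 37 genes; red were called higher (30), blue lower (4), grey not called (39), and lines join probe sets of 1 gene. The brighter Col3a1 and Col1a1 probe sets lie below their partners, and the second Col4a5 probe set lies near 0.

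The p53 on arrays did not match equally well for all members. They were further apart than the p53 off arrays in 19 of 37 genes, against 55.2% of all genes, and the median gap was 0.12 in p53 on and 0.10 in p53 off. For 6 genes the p53 on arrays differed by about 0.5 or more: Col14a1 (1.14), Col4a5 (0.75), Lox (0.72), Col8a2 (0.59), Col8a1 (0.50) and Col11a1 (0.50). In each of these 6, which were picked out after their values were seen, replicate 2 was the lower of the pair. Over all members replicate 2 was lower in 21 of 37, and over all genes in 39.7%. Col8a1, Lox and Col11a1 had more negative changes when p53 on replicate 1 was left out. Cyp2e1, a hepatocyte enzyme gene, had 9.71 in p53 on replicate 1 and 7.39 in replicate 2, against 7.27 and 7.24 in p53 off. It is 1 of 6 hepatocyte markers measured and was picked after its values were seen. Ahsg, another of them, had 6.16 in p53 on replicate 1 and 6.31 in replicate 2. The part of such markers in these gaps was not tested. The type I, III and VI genes, by contrast, differed by under 0.15 between the p53 on arrays.

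**Figure D4:**
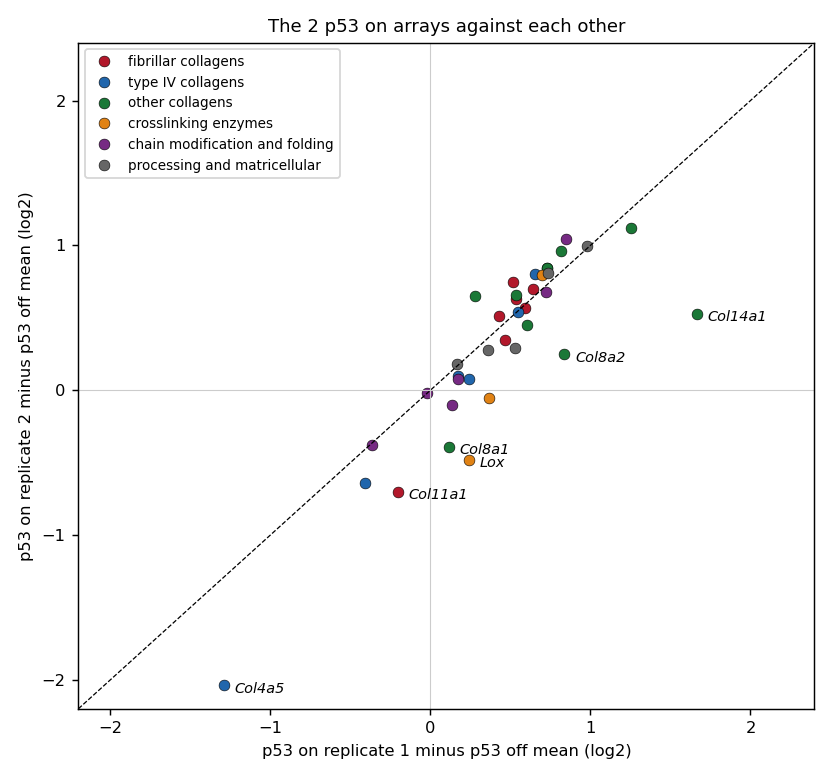
Change from the p53 off mean in p53 on replicate 1 (x axis) and replicate 2 (y axis), log2, for the 37 genes coloured by role; the dashed line marks equal values. Most genes lie along the line, and the 6 named ones, with gaps from 0.50 to 1.14, lie below it.

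Of the wider pathway, genes of collagen breakdown and uptake, a list that includes inhibitors of the proteases, rose more often than they fell. Of 12 measured genes 5 rose and 1, the collagenase gene Mmp13, fell (-0.62 ± 0.09; median of the list 0.39). Timp3, an inhibitor of matrix proteases, rose by 1.99 ± 0.09 (limma adjusted p = 0.00043), Mmp2, a gelatinase, by 1.65 ± 0.13 and Ctsk, the protease cathepsin K, by 1.60 ± 0.11. Their groups did not overlap: Mmp2, for instance, went from 11.36 and 11.02 to 12.89 and 12.80. Collagen receptors split, with 4 of 8 higher and 3 lower (median 0.21). Ddr2, a receptor of fibrillar collagen on mesenchymal cells, rose by 1.56 ± 0.08, from 9.39 and 9.27 to 10.90 and 10.87. Ddr1, its epithelial relative, had 12.04 and 12.01 with p53 off and 11.11 and 11.04 with p53 on and changed by -0.95 ± 0.07 (limma adjusted p = 0.00113; -0.53 with the mean of all its probe sets). Itga1, a collagen-binding integrin subunit, rose by 1.20 ± 0.08 (1.93 with the mean of all its probe sets). With p53 off replicate 2 left out, the receptors numbered 2 higher and 1 lower.

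Other genes of synthesis and other chains had medians near that of all genes. Of 21 further synthesis and processing genes 4 rose and 4 fell (median 0.08; 1 was higher without p53 off replicate 2). Pcolce2, a relative of Pcolce, had 9.62 and 9.86 with p53 off and 6.79 and 6.70 with p53 on, a change of -3.00 ± 0.10 beside the rise of 0.99 in Pcolce (limma adjusted p = 0.00028 for Pcolce2). Loxl4, a further lysyl oxidase, changed by -0.85 ± 0.11 (limma adjusted p = 0.00474; -0.56 with the mean of all its probe sets), whereas P3h3, of the prolyl 3-hydroxylase family, rose by 1.10 ± 0.10. Of 18 further chains 4 rose and 1, Col7a1 of anchoring fibrils, fell (-0.83 ± 0.14; not called without either p53 off array, limma adjusted p up to 0.0675; median of the list -0.0015). Of these chains 14 lay in the dimmest 40% of genes, and 1 was called higher when such genes were left out. Col24a1 changed by 1.42 ± 0.29, Col10a1 by 1.03 ± 0.12 and Col23a1 by 0.88 ± 0.22; the first and last were not called without either p53 off array (limma adjusted p up to 0.0849 and 0.177). TGF-beta response genes, often read beside collagens, numbered 4 higher and 2 lower of 10 (median 0.20, and -0.02 without p53 on replicate 1). Smad7, an inhibitor of the pathway, changed by -0.82 ± 0.09 and Tgfb2, a ligand, by 0.56 ± 0.08. Tgfb1i1 changed by 0.52 ± 0.09, a call lost without p53 off replicate 1 or 2. In the absence of p53 off replicate 1, 1 gene of this list was higher and 1 lower.

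Markers of collagen-making cells were mostly higher in p53 on, and so were endothelial and macrophage markers. Of 15 fibroblast, stellate cell and pericyte markers, none of them a member, 10 rose and 1 fell, with a median of 0.73 and a mean log2 value over the list of 10.58 and 10.31 with p53 off and 11.24 and 11.27 with p53 on. Lum, a proteoglycan of collagen fibrils, rose by 3.01 ± 0.15 (8.07-fold; limma adjusted p = 0.00048), Dcn, its relative decorin, by 2.53 ± 0.26 and Cygb, a stellate cell marker, by 1.30 ± 0.09. Other markers of the list rose less, such as Des by 0.38 and Acta2 by 0.57, beside 0.41 to 0.67 for the 6 called fibrillar genes. When probe sets were averaged the median of the list was 0.40 and that of the fibrillar genes 0.60. Lrat, the vitamin A storage enzyme of quiescent stellate cells, fell (-0.85 ± 0.21; limma adjusted p = 0.0329), a call lost with the crossed replicate block and without p53 off replicate 1 or p53 on replicate 2 (up to 0.113). Their part in the collagen values was not tested.

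Of 12 endothelial markers 8 rose and 1, the sinusoidal marker Lyve1, fell (Lyve1 was not called without p53 off replicate 1, limma adjusted p = 0.0748; median 0.65; mean 8.98 and 8.92 in p53 off, 9.33 and 9.59 in p53 on), led by Tek (1.40 ± 0.19) and Emcn (0.93 ± 0.07); Tie1 changed by 0.79 ± 0.15 and was not called without either p53 off array (limma adjusted p up to 0.0916). Only 3 of the 12 were higher when p53 off replicate 1 was left out. Of 10 macrophage markers 6 rose and 0 fell (median 0.83; mean 9.90 and 9.91 in p53 off, 10.61 and 10.46 in p53 on), with Adgre1 at 1.17 ± 0.09, Csf1r at 1.16 ± 0.10 and C1qb at 0.94 ± 0.13. Of 6 lymphocyte markers 1 was called, Ncr1 (0.69 ± 0.12), and of 4 neutrophil markers 1, Csf3r (0.38 ± 0.08). Over all genes 28.7% were called in either direction. Both genes lost their call without p53 off replicate 1 or 2. Of 6 hepatocyte markers 1, Ahsg, was called (-0.45 ± 0.12; limma adjusted p = 0.0405, and up to 0.193 in 4 settings that lost the call), and 4, among them Alb at 7.07 and 7.06 with p53 off and 7.39 and 6.96 with p53 on, lay in the dimmest 40% of genes. Most defining hepatocyte markers were thus dim in tumors labelled as liver.

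**Figure D5:**
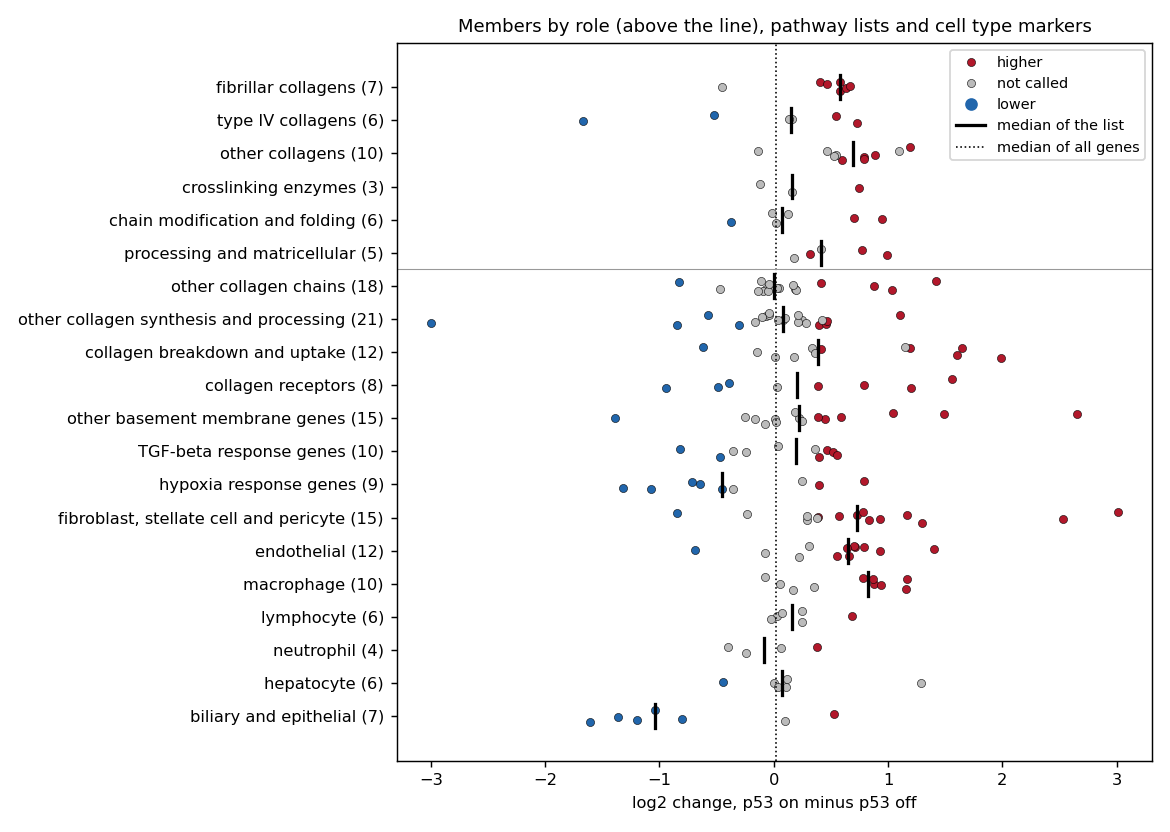
Change of each gene (log2, p53 on minus p53 off) by role group, above the line, and by pathway list and cell type marker list, below it, with the number measured in brackets; black bars are list medians and the dotted line the median of all genes, 0.02. Fibrillar and other collagens centre at 0.58 and 0.69. The fibroblast list centres at 0.73, the endothelial list at 0.65, the macrophage list at 0.83 and the epithelial list at -1.04.

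The median log2 value per array was between 7.29 and 7.39. The 3' minus 5' difference of control probe sets, which grows as RNA degrades, was 0.39 and 0.26 for beta-actin with p53 off and 0.48 and 0.49 with p53 on, and its part in any change was not tested. The p53 off arrays correlated with r = 0.9969 across genes and the p53 on arrays with r = 0.9931; genes are not independent replicates. The transcript that the hairpin targets was not analysed here, and p53 status is taken from the labels alone.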

How the data were processed

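RNA from 4 mouse liver tumor samples had been amplified, biotin-labelled and hybridized to Affymetrix arrays, per the labels' protocols. The deposited table holds log2 values that the authors made with RMA (background correction, quantile normalization and summarisation per probe set); limma 3.14.4 is named as well, per the submitters' processing notes, while no annotation or build is given in the sources used here. Of 45101 probe sets 64 controls were left out. A platform annotation gave 34945 probe sets 1 gene symbol, 932 several and 9160 none. Each gene took its brightest probe set of exactly 1 symbol, with no filter on dim genes.

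Genes, and separately all 45037 probe sets, were fitted with lmFit and eBayes (limma 3.58.1, R 4.3.3; 2 residual and 5.47 total degrees of freedom) as p53 on minus p53 off, with no block. A permutation of 2 against 2 arrays cannot give a p under 0.333, so none was used. The number of arrays limits the precision. The fit was tested on simulated data. Members, lists and tests were chosen with earlier results of these data known. All measured members are named; of each other list, the 3 called genes of largest change or the gene of smallest p, plus Cyp2e1, Alb, Lrat, Epcam, Ankrd37, Mmp13, Col7a1, Lyve1, Des and Acta2, chosen after their values were seen. Alternatives were a replicate block, quantile normalization, median centring, spike-in scaling, a filter on dim genes, other choices of probe set, other eBayes settings, array weights, a size threshold and leaving out each array, where a lone array is assumed to vary like the other group. A crossed block was added after seeing the data. Figures used Python 3.11.15 and matplotlib 3.10.9.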

Additional observations from a re-analysis of the deposited data

How the results depend on the processing

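Over 16 alternative settings 0 of the 22 called members changed sign, and 13 (Col4a1, Col4a2, Col4a5, Col5a3, Col6a1, Col6a2, Col6a3, Col15a1, Loxl3, Plod1, P4ha3, Pcolce and Fap) were called in each setting that tested them, other than the size threshold. Of 588 values of single members, 38 lost a call and 24 gained one. A size threshold of 1 left 1 member higher and 1 lower (496 and 464 of all genes).

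Leaving out each array in turn gave 12 to 22 members higher and 1 to 6 lower, and 1093 to 2573 genes higher and 1135 to 2711 lower in all. The same removals gave 19 to 31 member probe sets higher and 1 to 11 lower. The median change was 0.47 to 0.68 for fibrillar collagens, 0.60 to 0.84 for other collagens, -0.05 to 0.36 for crosslinking enzymes and 0.0288 to 0.153 for chain modification and folding. That last median was 0.16 after quantile normalization, -0.0044 after centring on the array median, 0.20 after spike-in scaling and -0.0051 when probe sets were averaged.

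Spike-in scaling moved the median of all genes from 0.02 to 0.15 and centring on the array median moved it to -0.05. With spike-in scaling 25 members were higher and 2 lower, 4421 genes were higher, 70% of the called genes were higher (48.8% in the fit as reported, 37.9% with centring), and the medians were 0.71 for fibrillar, 0.28 for type IV and 0.82 for other collagens.

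The replicate numbers are not said to pair samples. The difference between replicates 1 and 2 in p53 off correlated with that in p53 on at r = -0.1538 across genes, and with the replicate block 19 members were higher and 3 lower, against 2027 and 2296 of all genes. The crossed block gave the same counts of members, 1984 and 1970 of all genes, and 2 member probe sets lower. Without the dimmest 40% of genes 33 members were tested. Signal near background limits Col4a4, Col8a2, Col11a1 and P4ha3.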
